A study of Mus musculus with 7 samples.

Results

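Of 68249 autosomal regions formed by merging Fos peaks of mouse hippocampus, 14512 had a peak in exactly 2 of 3 kainic acid libraries and in no saline library. The members were chosen from the peak calls alone: peaks of all 6 lists that overlapped by at least 1 bp were joined, and the joined regions of chromosomes 1 to 19 were sorted by the lists that had a peak there. For comparison, 11598 regions had a peak in all 3 kainic acid lists and 38907 in a single one, each with no saline peak, and a further 282 regions in exactly 2 kainic acid lists also had a saline peak and were left out. Which lists had a peak, and how strong that peak was, is therefore what made a region a member. Those values are described below without any test.

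The peaks came from chromatin immunoprecipitation and sequencing (ChIP-seq) with a monoclonal antibody against Fos on fixed hippocampal chromatin. All animals were C57BL/6J mice of 2 months, and no allele or transgene is given. The kainic acid group received 2 injections into the peritoneum of 10 mg/kg, 30 min apart, and hippocampi of mice that had reached seizures of level 4 were taken 1 hour after the first. The control group received saline, given in the series' text as PBS. Each group had 3 libraries, and 1 input library is also listed, of which no peak list was analysed here. How many animals were pooled for a library is not given, so the spread between libraries may be biological or technical. Whole hippocampus was used, so a weaker peak in fewer binding cells and a weaker peak per cell cannot be told apart.

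Fos is an immediate early gene product that pairs with a Jun protein to form the transcription factor AP-1. The pair reads a short palindrome, searched for here as TGANTCA with any middle base, and neurons build the pair within the first hour after strong firing. Kainic acid activates a class of ionotropic glutamate receptors and drives such firing in the hippocampus. In neurons AP-1 is known to sit mostly at enhancers inside and between genes, and less at the start sites of genes.

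The sequences below are shown because they carry the letters AP-1 reads beneath the members that lie on promoters. They belong to the 8 members of highest fold rank whose mean summit lay in the promoter window of a protein-coding gene with these letters before its start site. Each is taken from the RefSeq promoter table of GRCm38.p6, printed 5′ to 3′ on the strand of the gene, with up to 25 bases on each side. Capitals mark TGANTCA.
Hrh1: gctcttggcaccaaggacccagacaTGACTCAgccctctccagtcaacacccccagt
Tbkbp1: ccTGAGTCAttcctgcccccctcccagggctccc
Mme: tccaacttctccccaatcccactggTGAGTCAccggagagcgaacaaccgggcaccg
Prok2: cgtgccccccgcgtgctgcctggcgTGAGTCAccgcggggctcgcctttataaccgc
Vash2: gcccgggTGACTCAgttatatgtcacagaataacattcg
Arap2: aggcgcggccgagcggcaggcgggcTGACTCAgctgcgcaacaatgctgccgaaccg
Slc6a17: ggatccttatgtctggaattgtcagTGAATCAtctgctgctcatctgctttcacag
Zyx: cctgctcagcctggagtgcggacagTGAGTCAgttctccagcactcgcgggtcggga

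All 8 of these regions had their peaks in kainic acid replicates 2 and 3. At Hrh1, which encodes the histamine H1 receptor, the printed stretch is chr6:114458281-114458337 on the plus strand, and the letters lie 20 bp from the mean summit of the peaks. The deposited folds there, each a ratio of peak to local background in that library, were 6.25 in replicate 2 and 6.75 in replicate 3. At Mme, which encodes the peptide-cleaving membrane enzyme neprilysin, the stretch is chr3:63295855-63295911 on the plus strand, and the letters lie 26 bp from the mean summit. Folds at Mme were 6.48 and 5.92, and the nearest peak of replicate 1 was 527 kb away. At Slc6a17, a transporter of synaptic vesicles, the stretch is chr3:107500741-107500796 on the minus strand, with the letters 23 bp from the mean summit. Across all 8 regions this distance ran from 20 to 90 bp. The regions were chosen with mean summit and letters in the same promoter window, which bounds the distance. The remaining stretches are chr11:97150292-97150325 (Tbkbp1, minus strand), chr6:99726428-99726484 (Prok2, minus), chr1:190979210-190979248 (Vash2, minus), chr5:62766322-62766378 (Arap2, minus) and chr6:42349682-42349738 (Zyx, plus).

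Most members were regions that replicate 1 lacked. Replicates 2 and 3 shared 12735 of the 14512 members, 87.8% (95% Clopper-Pearson interval 87.2 to 88.3, counting error only). Replicates 1 and 2 shared 1540 members, 10.6%, and replicates 1 and 3 shared 237, 1.63%. The order of the pairs was that of the summed lengths of their lists, which held 15009, 63197 and 29650 peaks for kainic acid replicates 1, 2 and 3, and 7, 3277 and 2 for saline replicates 1, 2 and 3. With each kainic acid list reduced to the same number of its strongest peaks, 5222 regions were in exactly 2 lists and the share of the pair 2 and 3 was 43.1%. The number of members and their division over the pairs thus differ by over 1.5 times with the length of the lists.

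Seen from each list, membership meant different things. In replicate 1, members made up 12.4% of the list's 14383 autosomal regions, and 80.6% were in all 3 lists. In replicate 2 they made up 23.2% of 61504 regions, where 56.3% were in that list alone. In replicate 3 they made up 45.2% of 28682 regions, the highest share of the 3 lists. Of the 38907 single-list regions, 34600 came from replicate 2, 3559 from replicate 3 and 748 from replicate 1. In comparisons with single-list regions below, class and library therefore cannot be told apart.

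Members stood between the other classes in fold rank in each list. A fold percentile ranks a peak within its own list, with 0 the highest fold and 100 the lowest, because folds are not scaled between libraries. The median percentile of the members was 68.0 in replicate 1, 36.6 in replicate 2 and 60.4 in replicate 3. Regions in all 3 lists had medians of 42.7, 12.5 and 25.0, and regions in a single list had 71.2, 65.6 and 73.4. In replicate 1 the members thus ranked near its single-list regions, while in replicate 2 they ranked well above them.

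In the deposited units, the median fold of the members was 3.91 in replicate 1, 5.02 in replicate 2 and 3.75 in replicate 3. The pileup, which is the number of reads over the summit recovered from fold and −log10 p, had medians of 18, 22 and 22 reads. The lowest pileup among all called peaks of these lists was 12, 9 and 13 reads. The members' median was thus nearest to the weakest calls in replicate 1 and farthest above them in replicate 2. Medians for regions in all 3 lists were 23, 35 and 31 reads. The lowest −log10 q of the members was 1.40, 1.36 and 1.35 in replicates 1, 2 and 3, against medians of 4.37, 8.27 and 5.33.

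The members were also intermediate in width. Merged width had a median of 576 bp (quartiles 453 and 736, range 230 to 2785), against 842 bp for regions in all 3 lists and 300 bp for regions in a single list. By pair, the median was 467.5 bp for replicates 1 and 2, 492 bp for replicates 1 and 3 and 593 bp for replicates 2 and 3. A merged region of several peaks is at least as wide as its widest peak, so width rises in part with the number of lists by construction.

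**Figure D1:**
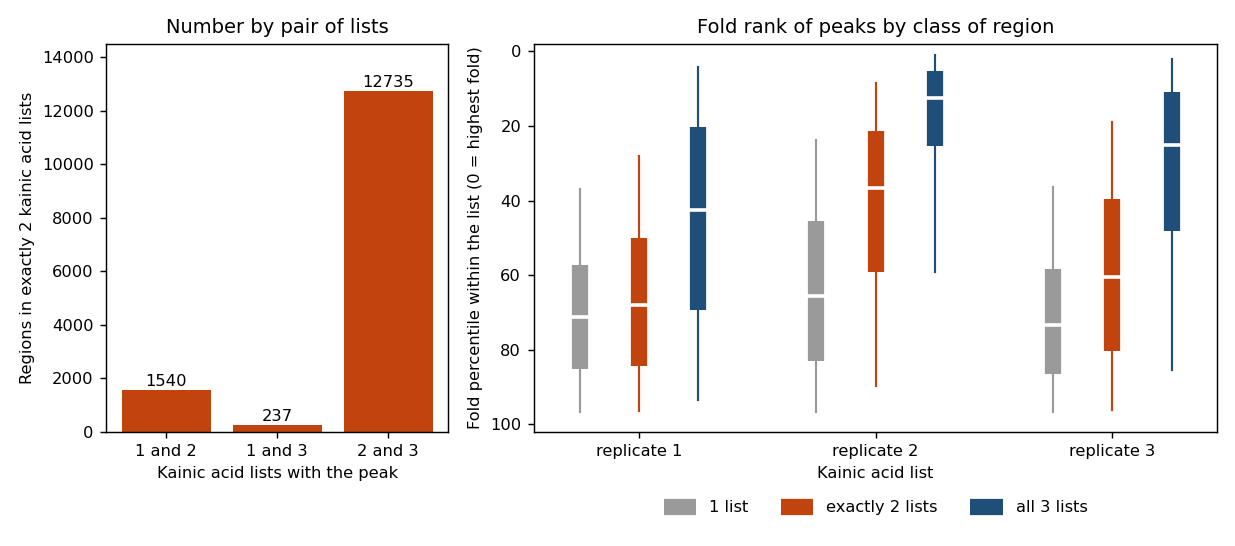
Left, number of regions in exactly 2 kainic acid lists by pair of replicates; right, fold percentile (0 is the highest fold of a list) of regions in 1 list, exactly 2 and all 3 lists within each kainic acid replicate, with the median as a white line, quartiles as bars and percentiles 5 to 95 as thin lines. The pair 2 and 3 holds 12735 of 14512 members, and member medians of 68.0, 36.6 and 60.4 lie between those of the other classes in all 3 replicates.

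Members are regions where peaks of 2 lists overlap, so their paired peaks lay close together in part by construction. Median peak widths of members, 282, 476 and 411 bp in replicates 1, 2 and 3, also limit these distances. The summits of the strongest peak in each of the 2 lists were a median of 92 bp apart (quartiles 41 and 170), and 53.7% were within 100 bp. In 92.9% of members the peaks overlapped by at least 50% of the shorter one, and 38 members rested on an overlap of 1 to 10 bp. More than 2 peaks were joined in 681 members.

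The paired folds were only loosely ordered alike. Spearman's rho of fold across members was 0.190 for replicates 1 and 2 (n = 1540), 0.335 for replicates 1 and 3 (n = 237) and 0.340 for replicates 2 and 3 (n = 12735). Across regions in all 3 lists (n = 11598) the same pairs gave 0.543, 0.569 and 0.651. These are descriptions over regions of the same libraries, and the members span a narrower range of fold by the way they were chosen.

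The values at the edge of the rule were as follows. The list that lacked a peak had its nearest one within 200 bp of 42 of 1540 members of replicates 1 and 2 (2.73%), of 21 of 237 members of replicates 1 and 3 (8.86%) and of 79 of 12735 members of replicates 2 and 3 (0.620%). Within 1000 bp the shares were 9.03%, 22.4% and 4.74%, and the median distance to that peak was 13603, 7450 and 25368 bp. The pair 1 and 3 thus had the highest share of near misses at both limits and the pair 2 and 3 the lowest. This order was that of the length of the missing list. It held 63197 peaks for the pair 1 and 3, 29650 for the pair 1 and 2 and 15009 for the pair 2 and 3. The part of list length in these shares was not tested. Just inside the rule, 59 members had a peak of the missing list within 100 bp. Just outside it, 1042 regions of a single list had a peak of another kainic acid list within 100 bp without touching it.

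Like regions of the other classes, most members lay inside genes and far from start sites. Of the 14512, 65.0% had their mean summit inside a protein-coding gene, 10.1% lay outside but up to 10 kb from one, 15.2% lay over 10 up to 100 kb away and 9.69% lay over 100 kb away. In the same order, these shares were 62.1%, 9.79%, 16.5% and 11.7% for regions in all 3 lists. For regions in a single list they were 65.9%, 11.2%, 14.2% and 8.72%. The shares of the genome at these positions were not computed. Exons and introns were not analysed here. Close to a gene end, meaning up to 1 kb from the first or last base of a protein-coding gene, lay 1138 members, 7.84% (interval 7.41 to 8.29). This was between the 6.10% of regions in all 3 lists and the 10.9% of regions in a single list.

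Start sites with a known strand divided the same way. Of 13958 members on the 18 chromosomes with RefSeq start sites, 6.43% lay within 1 kb of one, 2.92% upstream and 3.51% downstream, against 4.59% of regions in all 3 lists and 9.24% in a single list. These start sites cover 16456 of the 20661 protein-coding genes, so distances are overstated where the nearest gene has none listed. Over 10 kb from any of the listed start sites lay 78.6% of members. The median distance was 48.4 kb, against 55.6 kb in all 3 lists and 42.2 kb in a single list. With the pairs pooled, members were thus nearer to start sites than regions in all 3 lists and farther than regions in a single list. Members of replicates 2 and 3 followed this order, with a median of 46.6 kb and 6.89% within 1 kb. Members of replicates 1 and 2 and of replicates 1 and 3 were instead farther than regions in all 3 lists. Their medians were 59.3 and 98.2 kb, with 3.38% and 1.31% within 1 kb.

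Gene position differed between the pairs of lists. The share at a gene end was 8.31% (interval 7.83 to 8.80) for replicates 2 and 3, 4.68% (3.68 to 5.85) for replicates 1 and 2 and 3.38% (1.47 to 6.54) for replicates 1 and 3. Among members of replicates 1 and 3, 3 of 229 lay within 1 kb of a start site, and 55 of 237, 23.2% (17.99 to 29.1), lay over 100 kb from any protein-coding gene. That far-from-gene share was 12.7% for replicates 1 and 2 and 9.08% for replicates 2 and 3, and its interval in replicates 1 and 3 overlapped neither. Fold rank did not order the gene-end share steadily: among members of replicates 2 and 3 it was 7.94%, 7.89%, 7.73% and 9.67% over 4 equal groups from the lowest to the highest mean percentile. These intervals treat regions as independent, which neighbouring regions are not, and library and pair cannot be told apart here.

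**Figure D2:**
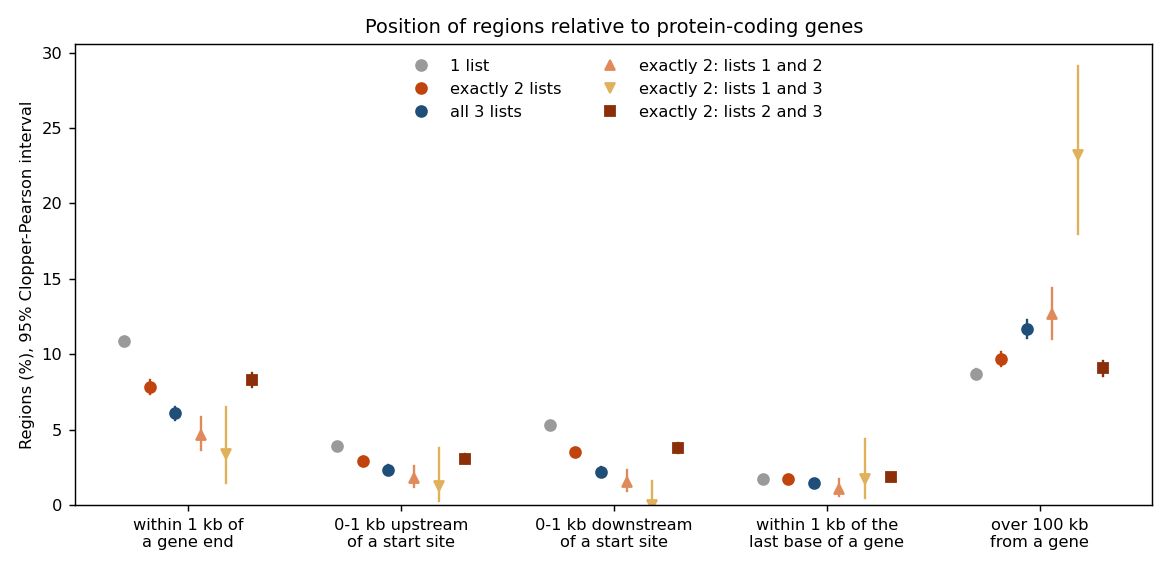
Percent of regions (vertical axis) at 5 positions relative to protein-coding genes, with 95% Clopper-Pearson intervals, for regions in 1 list, exactly 2 and all 3 lists and for each pair of lists. Members within 1 kb of a gene end (7.84%) lie between regions in all 3 lists (6.10%) and in 1 list (10.9%), and the pair 1 and 3 has the highest share over 100 kb from a gene (23.2%).

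Members were spread over all 19 autosomes. For each region in all 3 kainic acid lists, with or without a saline peak, there were 1.22 members, from 1.03 on chromosome 3 to 1.49 on chromosome 17. The nearest region in all 3 lists was a median of 31.8 kb away and within 10 kb for 24.5% of members, close to the 34.1 kb and 24.4% of single-list regions. The nearest other member was a median of 24.1 kb away, and within 10 kb for 30.0%.

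Promoter windows were searched for the letters AP-1 reads. A window ran from 250 bases before to 50 bases after a RefSeq start site, and 31365 windows were searched on both strands. TGANTCA was present in 7.85% of all windows and in 108 of the 231 windows that held the mean summit of a member, 46.8% (interval 40.2 to 53.4). Windows holding a member's mean summit were 0.736% of all windows. In windows that held the mean summit of a region in all 3 lists the share was 66.9% (85 of 127), and for regions in a single list it was 16.9% (131 of 773). Members thus lay between the other classes. The 3 intervals did not overlap, but they treat windows as independent, and the 231 member windows came from 207 regions. Single-list regions came mostly from replicate 2, so class and library cannot be told apart here.

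The choice of window mattered to the size of this share. Among all 722 windows that any base of a member touched, 22.7% held TGANTCA (interval 19.7 to 25.9). The share was 25.8% for regions in all 3 lists (22.1 to 29.7, overlapping that of members) and 11.4% for regions in a single list. Among promoter members with the mean summit in a window, 52.6% of those with the higher fold rank (61 of 116) and 41.8% of those with the lower (38 of 91) had the letters. Their intervals, 43.1 to 61.9 and 31.5 to 52.6, overlapped. The nearest TGANTCA lay a median of 36 bp from the mean summit of the 99 members that had one, and within 50 bp for 62.6%.

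Other letters were counted in the same windows. The same letters in another order, TCANTGA, were in 7.14% of all windows and in 10.4% of windows holding a member's mean summit. In the 21 members that had TCANTGA, it lay a median of 50 bp from the mean summit, and within 50 bp for 52.4%. For TCANTGA and TGANTCA alike, mean summit and letters had to share a window, which bounds these distances. The cyclic AMP response element TGACGTCA, which CREB and its relatives read and which holds no TGANTCA, was in 1.83% of all windows and in 5 of these 231, 2.16%. Among windows that any base of a member touched, 3.88% held TGACGTCA (interval 2.59 to 5.56). The shares were 3.71% for regions in all 3 lists and 4.10% for regions in a single list. The middle base of TGANTCA was C or G in 84.3% of the member windows with the letters (91 of 108) and in 67.0% of all windows with the letters. This share was 89.4% for regions in all 3 lists and 78.6% for regions in a single list. Member windows had a median GC content of 56%, against 53% of all windows, 51.3% for regions in all 3 lists and 57.7% for regions in a single list. The part of base composition in these shares was not tested. A match is a description of letters and not of a bound site.

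**Figure D3:**
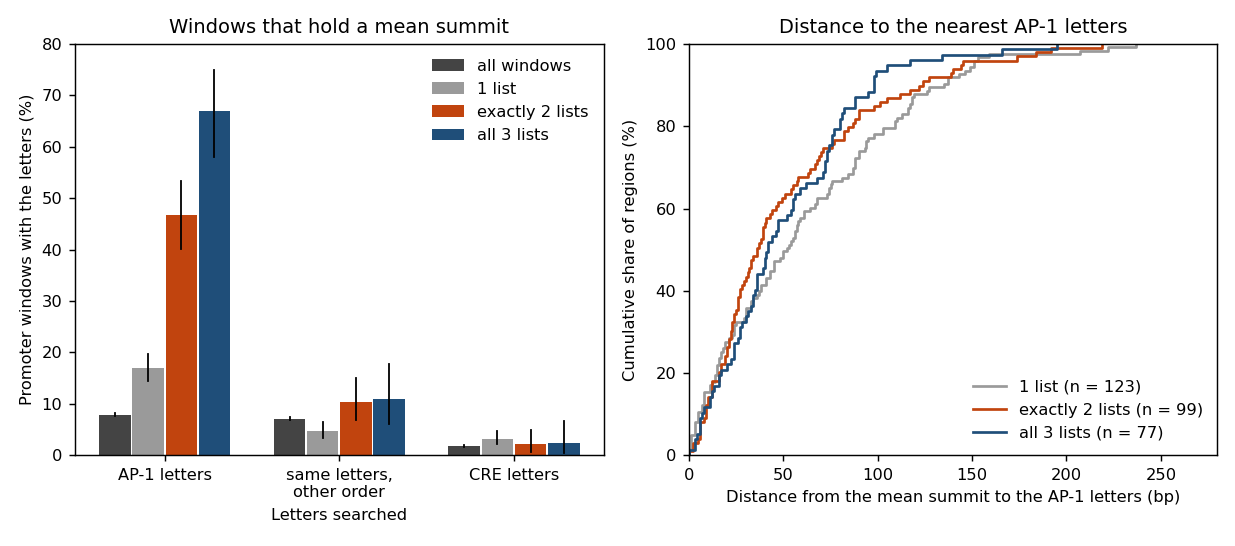
Share of promoter windows (250 bases before to 50 after a start site) with TGANTCA (AP-1 letters), the same letters in another order or the cyclic AMP response element (CRE), for all windows and for windows holding the mean summit of regions in 1 list, exactly 2 and all 3 kainic acid lists, with 95% Clopper-Pearson intervals, beside the distance from the mean summit to the nearest such letters. The AP-1 letters are in 46.8% of member windows against 7.85% of all windows, and lie a median of 36 bp from the mean summit.

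Of the 5 members of highest fold rank that touched a promoter window, 4 had their mean summit outside it. The strongest by mean percentile touched only the edge of the window of Psmd14, a deubiquitinating subunit of the proteasome, at chr2:61711742-61712368, with folds of 10.5 and 7.27 in replicates 2 and 3, and that window held no TGANTCA. A region at chr13:96131976-96133345 covered the windows of Sv2c, a synaptic vesicle glycoprotein, and of Gm29543 on the other strand. It had folds of 9.72 and 7.55, and neither window held TGANTCA. Its nearest peak in replicate 1 lay 0.395 kb away. A region at chr2:128428933-128429817 over the start of Morrbid, a long noncoding RNA, had folds of 9.26 and 7.84. It was the one of the 5 with its mean summit inside the window, and that window held TGANTCA. The windows of Gm40221 (with TGANTCA) and Gm42008 (without) completed the 5 strongest, so 2 of these 5 regions touched a window with the letters.

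Near genes, members were common. A member lay within 10 kb of 6278 of 20661 protein-coding autosomal genes, 30.4% of those counted, and a region in all 3 kainic acid lists, with or without a saline peak, within 10 kb of 25%. For 3343 genes, 16.2%, a member but no region in all 3 lists lay within 10 kb, which is 53.2% of the genes with a member. Exactly 1 member lay near 3736 genes, and 10 or more lay near 122. The share rose with gene length, from 15.8% of genes up to 10 kb to 85.5% of genes over 300 kb, so each list of genes is given beside the share of all genes in the same length classes.

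Genes that neurons switch on with activity mostly had a member nearby. Of 40 such genes, 33 had one within 10 kb, 82.5%, against 23.2% of all genes of the same lengths and 30.4% of all genes. Of the transcription factors 16 of 20 had one, and of the effectors (enzymes, secreted and synaptic proteins) 17 of 20. Of the 40, 27 had a region in all 3 lists, 11 had a member but no such region, and 2 (Ier2 and Penk) had neither. The list was put together with earlier results of these data known, and the share was 65.0% when replicate 2 was left out and 42.5% with lists of equal length.

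The 11 genes with a member but no region in all 3 lists were Atf3, Btg2, Dusp5, Dusp6, Egr2, Egr3, Fosl1, Jun, Nr4a1, Plk2 and Ptgs2. All 11 also had at least 1 single-list region within 10 kb. Regions with a saline peak lay within 10 kb of Dusp6, Egr3, Fosl1 and Jun, 1 at each, and none lay near the other 7. The plot of regions per gene shows them as the genes with a bar for members alone.

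**Figure D4:**
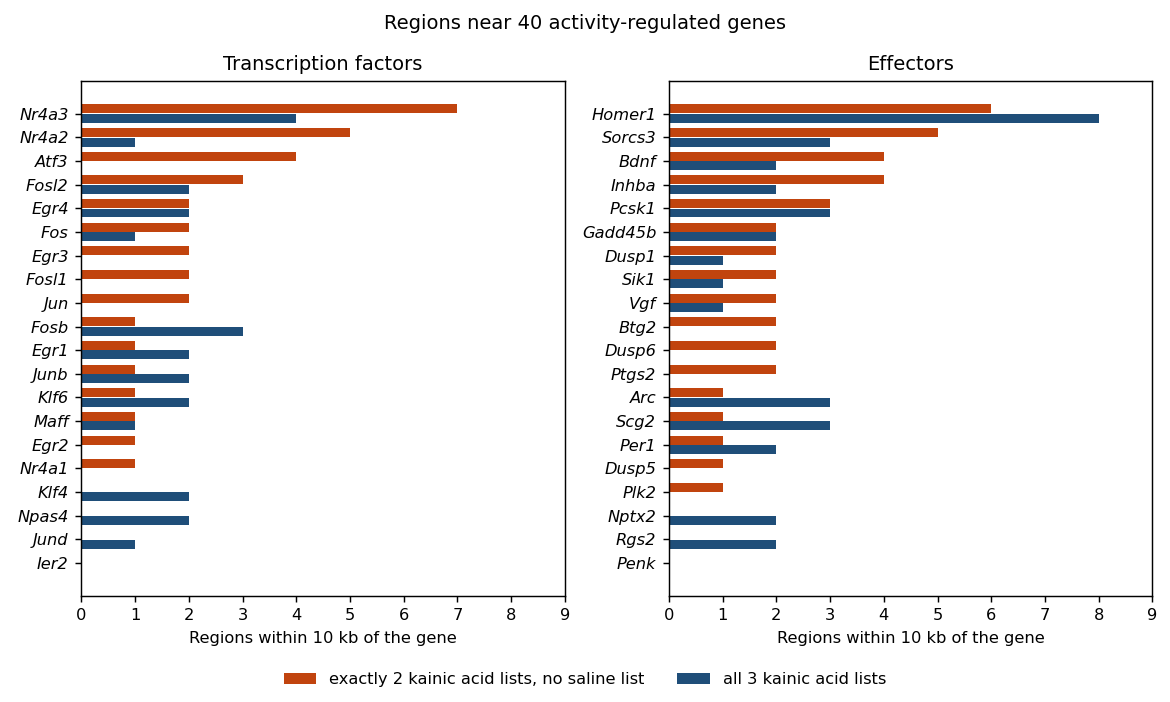
Number of regions within 10 kb of each of 40 activity-regulated genes, transcription factors on the left and effectors on the right, for regions in exactly 2 kainic acid lists (orange) and in all 3 (blue). Members are near 33 of the 40 genes, and 11 genes have an orange bar but no blue one.

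Among the AP-1 partners and relatives, Jun, the usual partner of Fos, had 2 members. The region chr4:95052728-95053394 lay at -809 bp from its start site (negative values are upstream), with folds of 4.79 and 3.65 in replicates 2 and 3. The other, chr4:95047569-95048095, lay 4411 bp downstream with folds of 2.63 and 3.67 in replicates 1 and 3, and replicate 2 had a peak 0.217 kb away. Fosl1, which encodes the Fos relative Fra-1, had 2 members of replicates 2 and 3, the stronger inside the gene with folds of 7.83 and 3.77. Atf3, a stress-induced factor of the same leucine zipper class, had 4 members of replicates 2 and 3, at 206, -445, -3603 and -6754 bp from its start site. The farthest upstream of these had the highest folds of the 4, 7.83 and 4.00, and replicate 1 had no peak within 34.1 kb of it.

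Of the 11 genes, 3 encode nuclear receptors or zinc finger factors. Nr4a1, an orphan nuclear receptor and classic early gene, had a single member, chr15:101266582-101267368, with its mean summit 15 bp from a start site. Its folds were 9.17 in replicate 2, at percentile 7.16, and 3.92 in replicate 3, at percentile 54.1, while the nearest peak of replicate 1 lay 30.4 kb away. The same region thus ranked near the top of one list and near the middle of another. Nr4a1 also had 14 single-list regions within 10 kb. Egr2 had 1 member, 0.065 kb beyond the gene and 4323 bp from the start site, with folds of 3.70 and 4.36. Egr3 had 2 members, at 2.69 and 1.90 kb from the gene, the second with folds of 6.75 and 4.77.

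Among the effectors, Ptgs2, which encodes the inducible prostaglandin synthase COX-2, had a member 14 bp from its start site and another 4263 bp downstream. The first had folds of 3.19 and 2.10, among the lowest of both lists at percentiles 90.2 and 99.9, and the second had 5.79 and 4.46. Pileups were 26 and 25 reads at the first and 22 and 23 at the second, so the first was lower in fold but not in reads. The nearest peaks of replicate 1 lay 223 and 227 kb away. Dusp6, a phosphatase that switches off the kinase ERK, had a member at -100 bp from its start site with folds of 7.08 and 3.60 in replicates 2 and 3, and a weaker one of replicates 1 and 2 near its last base. Plk2, an activity-induced kinase that acts at synapses, had a single member of replicates 1 and 2, with folds of 5.51 and 5.86 and 0.325 kb beyond the gene. Dusp5, a nuclear ERK phosphatase, had 1 member 2944 bp downstream of its start site, with folds of 6.38 and 3.49 in replicates 2 and 3. Btg2, an antiproliferative early gene, had 2 members at -4271 and -5014 bp from its start site, with folds from 3.46 to 5.05.

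The other lists hold genes of synapses and excitability, most of them long. Members lay near 17 of 19 glutamate receptor subunit genes (68.4% of all genes in their length classes), led by the AMPA receptor gene Gria1 with 23 and the NMDA receptor gene Grin2b with 22. They lay near 9 of 11 GABA-A receptor subunit genes (56.9%), with 11 near Gabrb1. Of the potassium channel genes 18 of 20 had a member (63.1%), with 16 near Kcnma1 and 13 near Kcnd2, and of the presynaptic genes 17 of 19 (57.4%), with 19 near the calcium sensor gene Syt1. In all 4 lists the share with a member was above that of genes of like length. List genes off chromosomes 1 to 19, such as Gria3, Gabra3 and Syn1, were not counted.

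Marker genes of cell types were counted in the same way, and a peak near a gene is not a measure of its expression. Dentate granule cell markers had a member at 3 of 5 genes (28.9% of genes of like length), with 3 near Prox1 and 1 near C1ql2, and pyramidal cell markers at 4 of 5 (38.1%), with 2 each near Fibcd1 and Spock1. Interneuron markers had one at 2 of 6 (25.1%), Sst with 2 and Gad1 with 1. Astrocyte markers had one at 3 of 8 (30.5%), including Aldh1l1 and Slc1a2 with 1 each, and oligodendrocyte markers at 4 of 9 (32.5%), with 9 near Mbp, a gene of the myelin sheath, and 3 near Cnp. Microglial markers had one at 1 of 8 (25.1%, Aif1), endothelial markers at 1 of 6 (44.9%, Flt1 with 2) and liver genes, which the tissue should not use, at 1 of 20 (24.3%, F2). Of these 8 marker lists, the dentate granule, pyramidal, interneuron, astrocyte and oligodendrocyte lists stood above the share of like-length genes and the microglial, endothelial and liver lists below it. With 5 to 9 genes in every list but that of the liver, 1 gene more or less moves such a share widely.

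The 10 genes with most members were all over 300 kb long. Dlg2, a scaffold of the postsynaptic density, had 42 members and 54 regions in all 3 lists. Tcf4, a transcription factor of neuronal development, had 33 members and 16 regions in all 3 lists, and Anks1b, a postsynaptic protein, had 32 and 15. Celf2 had 31 and 24, Dlgap1 31 and 43, Dlgap2 30 and 24, Prkce 30 and 13, Dab1 29 and 12, Auts2 27 and 15 and Rbfox1 25 and 21. The ratio of members to regions in all 3 lists ran from 0.721 at Dlgap1 to 2.42 at the reelin adaptor gene Dab1, beside 1.22 over all regions. It was close to that background at Celf2 (1.29), Dlgap2 (1.25) and Rbfox1 (1.19), and the choice of genes with most members favours high ratios.

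Some members ranked high in their 2 lists. For replicates 1 and 3 the leading member was chr19:28642160-28643687, inside Glis3, a zinc finger transcription factor. It was 1528 bp wide with folds of 12.2 and 10.3, at percentiles 0.636 and 1.53, and the nearest peak of replicate 2, the longest list, lay 3.63 kb away. The next was chr8:123691832-123692929, 28.5 kb from Rhou, with folds of 8.56 and 8.51 and a replicate 2 peak 3.18 kb away. The others of that pair were nearest to Mrpl22, Tmeff2 and Hecw1, with mean percentiles from 11.9 to 16.0. The Glis3 and Rhou regions are thus among the strongest peaks of both lists that have them.

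For replicates 2 and 3 the 5 leading members were nearest to or inside Sphk1, Ksr2, Gpr162, Cacna2d2 and Rara, with mean percentiles from 3.26 to 3.69. The region nearest to Sphk1, a sphingosine kinase, had folds of 11.6 and 8.74, and the one inside Rara, the retinoic acid receptor alpha gene, had 13.0 and 7.77. Replicate 1 had no peak within 8.33 kb of any of these 5. For replicates 1 and 2 the leading 5 were nearest to or inside Wsb1, Rfx4, Chst11, Actbl2 and Gm7972, with mean percentiles from 10.3 to 16.7. The region 14.6 kb from Wsb1 had folds of 6.22 and 9.69.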

How the data were processed

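Fos ChIP-seq peak lists of 3 kainic acid and 3 saline hippocampal libraries were analysed. Per the submitters' processing notes, Trim Galore 0.6.4, Bowtie2 2.3.4.3, MACS2, deepTools 3.5.0 and the build mm10 were used, with no roles given. Per the file contents, the deposited peak names carry trimming, a mapping quality of 30, sorting and merging. The control library and the cutoff are not given in the sources used here. Each list has 10 columns. The authors' score, the deposited fold (a linear ratio of peak to local background) and the deposited −log10 values of p and q all belong to 1 library. With no scaling between libraries, they were compared only inside a list.

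Peaks overlapping by at least 1 bp were merged with Python 3.11.15 (numpy 2.4.6, pandas 2.3.3, scipy 1.17.1; plots with matplotlib 3.10.9). A region's position is the mean of the summits of its strongest peak in each list. The lists give no read totals. The pileup was solved from fold and −log10 p under a Poisson model for 100% of the peaks of all 6 lists. The tolerance was 0.001 in −log10 p, widened in proportion for peaks of large −log10 p. Merging, solving and the letter search were tested on simulated data. Genes, spans and promoter windows came from RefSeq tables of GRCm38.p6, the assembly of mm10. Intervals are 95% Clopper-Pearson and cover counting error only. No test was run, because the members were chosen by these calls and regions are not replicates.

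The members and gene lists were chosen with earlier results of these data known. Named genes are the activity-regulated genes with a member but no region in all 3 lists within 10 kb, the 10 genes with most members, the genes at the 5 members of highest fold rank in each pair, the 2 genes with most members in each other list, and the 5 promoter members of highest fold rank. Alternatives tried were a larger overlap, stricter q, lists of equal length, saline peaks kept, each library left out and other reaches from genes. TCANTGA and the alternatives for promoter letters were chosen after seeing the data. Some genes that the rule names are not reported here.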

Additional observations from a re-analysis of the deposited data

How the results depend on the processing

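Of 105 alternative values of the main results, 50 stayed within 1.5 times (counts) or within the counting interval (shares, widths) and 55 did not. With each library left out in turn, the number of members ran from 11856 to 24340, their median width from 576 to 708 bp, the share at a gene end from 5.91 to 8.68%, inside a gene from 62.1 to 65.2%, of genes with a member from 24.4 to 39.5%, of activity-regulated genes from 65.0 to 92.5%, and of TGANTCA from 21.1 to 31.8% of windows touched and from 42.9 to 65.0% of windows with the mean summit. Leaving out a kainic acid list makes the members the regions shared by the remaining 2, which gives no share for the pair 2 and 3, and the highest count, 24340, came without replicate 1. With −log10 q of at least 5, the share of the pair 2 and 3 was 88.6%, the width 670 bp, the gene-end share 8.91% and the share of genes 24.9%. With at least 10, 4989 members remained, with a pair share of 91.6%, a width of 836 bp, 10.1% at gene ends, 63.5% inside genes, 15.3% of genes, 55.0% of activity-regulated genes, and TGANTCA in 26.1% of windows touched and 64.6% of windows with the mean summit. With equal numbers of kainic acid peaks, the values were 5222 members, 43.1%, 666 bp, 62.4% inside genes, 15.3% of genes, 42.5% of activity-regulated genes, and TGANTCA in 26.9% and 58.1%. With peaks merged at an overlap of 50%, width was 570 bp and the share of genes 29.7%. With saline peaks kept, the gene-end share was 8.68% and the share of genes 31.2%. The gene-end share was 14.4% with ends within 2.5 kb, 11.9% with all annotated genes and 9.56% with any base of the region. The share inside a gene was then 72.1% with all annotated genes and 66.0% with any base. The shares of genes and of activity-regulated genes were 21.4% and 52.5% for regions touching the gene and 51.8% and 95% for a reach of 50 kb. Wider reaches and fewer peaks change the counts of members and the shares of genes by construction; the cause of the moves in width, gene position and TGANTCA shares with stricter q or fewer lists was not tested.

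Numbers of members at the named genes were recomputed as well, and of 210 such counts 101 stayed within 1.5 times of the reported count. Beyond that limit, 88 were lower, of which 37 were 0, and 21 were higher. No paired analysis was possible because the results come from no test. A region absent from a list was not called there, and a weaker peak may have been missed at this depth. The weakest kainic acid summits held 9 to 13 reads. A call also depends on the local background, so a region with more reads than these can still go uncalled.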
